A study of Mus musculus with 16 samples.

Results

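The interferon response genes are transcripts that cells raise after interferon binds its receptors. They were followed here as 44 genes listed by name, of 52997 genes in the count table. Of these, 29 lean towards type I interferon (20 antiviral effectors, 3 RNA sensors and 6 regulators) and 15 lean towards interferon gamma (2 transcription factors, 5 guanylate-binding proteins, 5 immunity-related GTPases and 3 antigen processing genes). All 44 members were found in the table and passed the filter on low counts in regulatory T cells (Tregs), and 43 passed it in whole muscle, where Gbp5 did not. RNA was sequenced from sorted Tregs, a suppressive class of T cells defined by Foxp3, and from whole skeletal muscle of mice aged 6 to 8 weeks. Tg mice were mTreg24 TCR-tg+ Foxp3 GFP+ (B6), carrying a transgenic T cell receptor and a green fluorescent reporter of Foxp3. Their WT counterparts were mTreg24 TCR-tg- Foxp3 GFP+ (B6), with the reporter but without the transgene. Tregs came from Tg muscle, WT muscle, injured Tg spleen, uninjured Tg spleen and WT spleen, with 2 libraries each. Those of injured animals were taken 3 days after cardiotoxin (Ctx), which destroys muscle fibres. Whole muscle came from mTreg24 TCR-tg+ (B6) and mTreg24 TCR-tg- (B6) mice 8 days after injury, with 3 libraries each. Tg Tregs were sorted as Vβ8-positive and WT Tregs as total Tregs, so genotype and sort gate cannot be told apart. That the WT spleen donors were injured is stated only in the design text of the series.

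Type I interferons bind the receptor made of Ifnar1 and Ifnar2, which activates the kinases Jak1 and Tyk2. The complex ISGF3, which holds STAT2 and IRF9, then binds interferon-stimulated response elements (ISREs) in promoters of antiviral genes. Interferon gamma binds Ifngr1 and Ifngr2 and acts mainly through gamma-activated sites (GAS) in promoters, raising Irf1, the guanylate-binding proteins, the immunity-related GTPases and the antigen processing genes. The division is one of degree, because most members respond to both kinds of interferon.

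Promoter stretches are shown because they let the lists be read against the elements that define the pathway. RefSeq windows on build GRCm38.p6 were matched for 33 of the 44 members, and the 250 bases before each start were searched on both strands. The ISRE core GAAANNGAAA was present for 15 of 33 matched members, or 45.5%, against 3.46% of 27025 genes in the promoter table. It was found for 8 of 20 type I leaning and 7 of 13 gamma leaning genes. The GAS core TTCNNNGAA was present for 11 of 33 members, or 33.3%, against 8.13% of all genes, with 4 of 20 type I leaning and 7 of 13 gamma leaning genes. A match describes these letters and is not evidence of binding. The following stretches run 5′ to 3′ on the strand of the gene, with the matched cores in capitals. Ifit3, Ifit1, Isg15 and Rsad2 are among the antiviral effectors that differed most between libraries, and their capitals mark ISRE cores alone. Bst2, Gbp7 and Igtp passed the test between tissues, and their capitals mark ISRE and GAS cores together.
Ifit3: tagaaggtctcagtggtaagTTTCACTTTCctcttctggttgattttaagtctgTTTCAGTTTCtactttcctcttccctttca
Ifit1: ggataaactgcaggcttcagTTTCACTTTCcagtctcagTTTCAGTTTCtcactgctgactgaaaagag
Isg15: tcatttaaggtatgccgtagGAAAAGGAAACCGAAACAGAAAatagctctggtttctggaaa
Rsad2: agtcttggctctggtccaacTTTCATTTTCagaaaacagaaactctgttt
Bst2: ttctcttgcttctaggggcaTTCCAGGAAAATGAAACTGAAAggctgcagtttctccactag
Gbp7: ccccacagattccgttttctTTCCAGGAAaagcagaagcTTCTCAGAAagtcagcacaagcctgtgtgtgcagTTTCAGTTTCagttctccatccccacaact
Igtp: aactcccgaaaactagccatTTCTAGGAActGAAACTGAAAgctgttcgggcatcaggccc
The Ifit3 stretch is chr19:34583353-34583436 on the plus strand and the Ifit1 stretch is chr19:34640765-34640833 on the plus strand. That of Isg15 is chr4:156200855-156200916 on the minus strand, and that of Rsad2 is chr12:26456543-26456592 on the minus strand. That of Bst2 is chr8:71537567-71537628 on the minus strand, that of Gbp7 is chr3:142530210-142530312 on the plus strand, and that of Igtp is chr11:58199491-58199551 on the plus strand. None of the 7 stretches overlaps an exon of its own gene in GENCODE M21. In Bst2 the GAS core overlaps the first ISRE core, and in Igtp they lie close together. Windows were not matched for Iigp1, Gbp4, Mx1, Usp18, Zbp1, Parp14, Mx2, Oas2, Rtp4, Parp9 and Dhx58.

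Levels below are CPM, read counts scaled to a common library total, with TMM scaling, which corrects for differences in RNA composition. They were scaled separately in Tregs and in whole muscle. Total counts ran from 1986700 to 9116800 in Tregs and from 5095999 to 7075420 in whole muscle. The Treg marker genes Foxp3, Il2ra, Ikzf2, Cd3e and Cd4 summed to between 3620 and 5620 CPM in the Treg libraries and to between 7.2 and 13.1 CPM in whole muscle. Skeletal muscle fibre genes summed to at least 143000 CPM in every whole muscle library. The labels leave unsaid whether libraries of a group came from different animals, and the spread behind each p-value may thus be technical.

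One library stood apart in these genes and has to be known before any group is compared. WT muscle Treg replicate 2 had the highest level of the 10 Treg libraries for 37 of the 44 members, or 84.1%, whereas it was highest for 14.6% of all genes tested. Among the 43 members with a mean of at least 5 CPM in WT muscle Tregs, each was higher in replicate 2 than in replicate 1. The median log2 ratio was 0.81 over these members, 1.13 for type I leaning and 0.58 for gamma leaning genes, and 0.06 over all genes. In Tg muscle Tregs the same ratio had a median of 0.02 over the members, and in injured Tg spleen Tregs -0.07. In WT spleen Tregs it was -0.28, and 6 of 43 members were higher in replicate 2. In uninjured Tg spleen Tregs it was 0.17, with 11.6% of members above 1, against 3.02% of all genes. Shifts of the members between replicates were thus not confined to WT muscle Tregs, where the median was largest. Replicate 2 was also the most deeply sequenced library, with 9116800 counts, and detected the fewest genes, 17081 against 20213 in replicate 1. The chi-square per degree of freedom between the libraries of a group was 31.9 in WT muscle Tregs and at most 9.92 in the other Treg groups. The WT muscle pair holds the deepest library, and the part of depth in this statistic was not tested. The part of depth or library complexity in the interferon levels was not tested.

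Among these 43 members, the widest gaps were in classical type I targets. Ifit3, which encodes a tetratricopeptide protein that helps bind viral RNA, had 453 CPM in WT muscle Treg replicate 2 and 54.9 CPM in replicate 1, an 8.24-fold gap. Oasl1, an oligoadenylate synthetase-like protein known in mice to restrain Irf7 translation, had 50.7 and 6.33 CPM in the same order. Rsad2, the antiviral enzyme viperin, had 201 and 36.8 CPM. The ISRE cores of Ifit3 and Rsad2 stand in the promoter stretches above, while no such core was found in the window of Oasl1. Genes with small gaps also had ISRE cores, among them Gbp3 with a 1.34-fold gap. Ifit1, which binds viral RNA lacking a host-type cap, had 526 and 118 CPM, and Mx1, a dynamin-like antiviral GTPase, had 243 and 56.9 CPM. At the other end, Irf1, the transcription factor that interferon gamma induces first, had 481 and 465 CPM. Eif2ak2, the RNA-dependent kinase PKR, had 50.2 and 47.7 CPM, and Tap1, a subunit of the peptide transporter for class I antigen presentation, had 930 and 829 CPM. The gap thus ran from 1.03-fold for Irf1 to 8.24-fold for Ifit3 among these 43 members, and Ifi44, below 5 CPM, had 4.17 and 0.452 CPM.

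**Figure D1:**
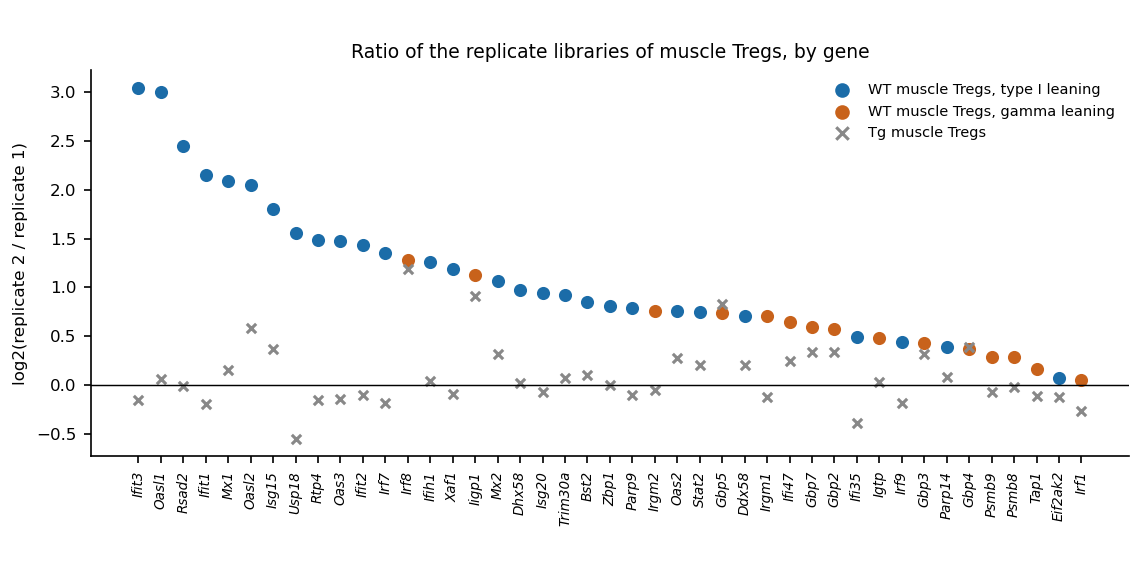
Log2 ratio of replicate 2 to replicate 1 (y axis) for each of the 43 members with a mean of at least 5 CPM in WT muscle Tregs (x axis), coloured by class, with the same ratio in Tg muscle Tregs as grey crosses. All coloured points lie above 0, up to 3.04 for Ifit3, and the crosses scatter around 0.

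**Figure D2:**
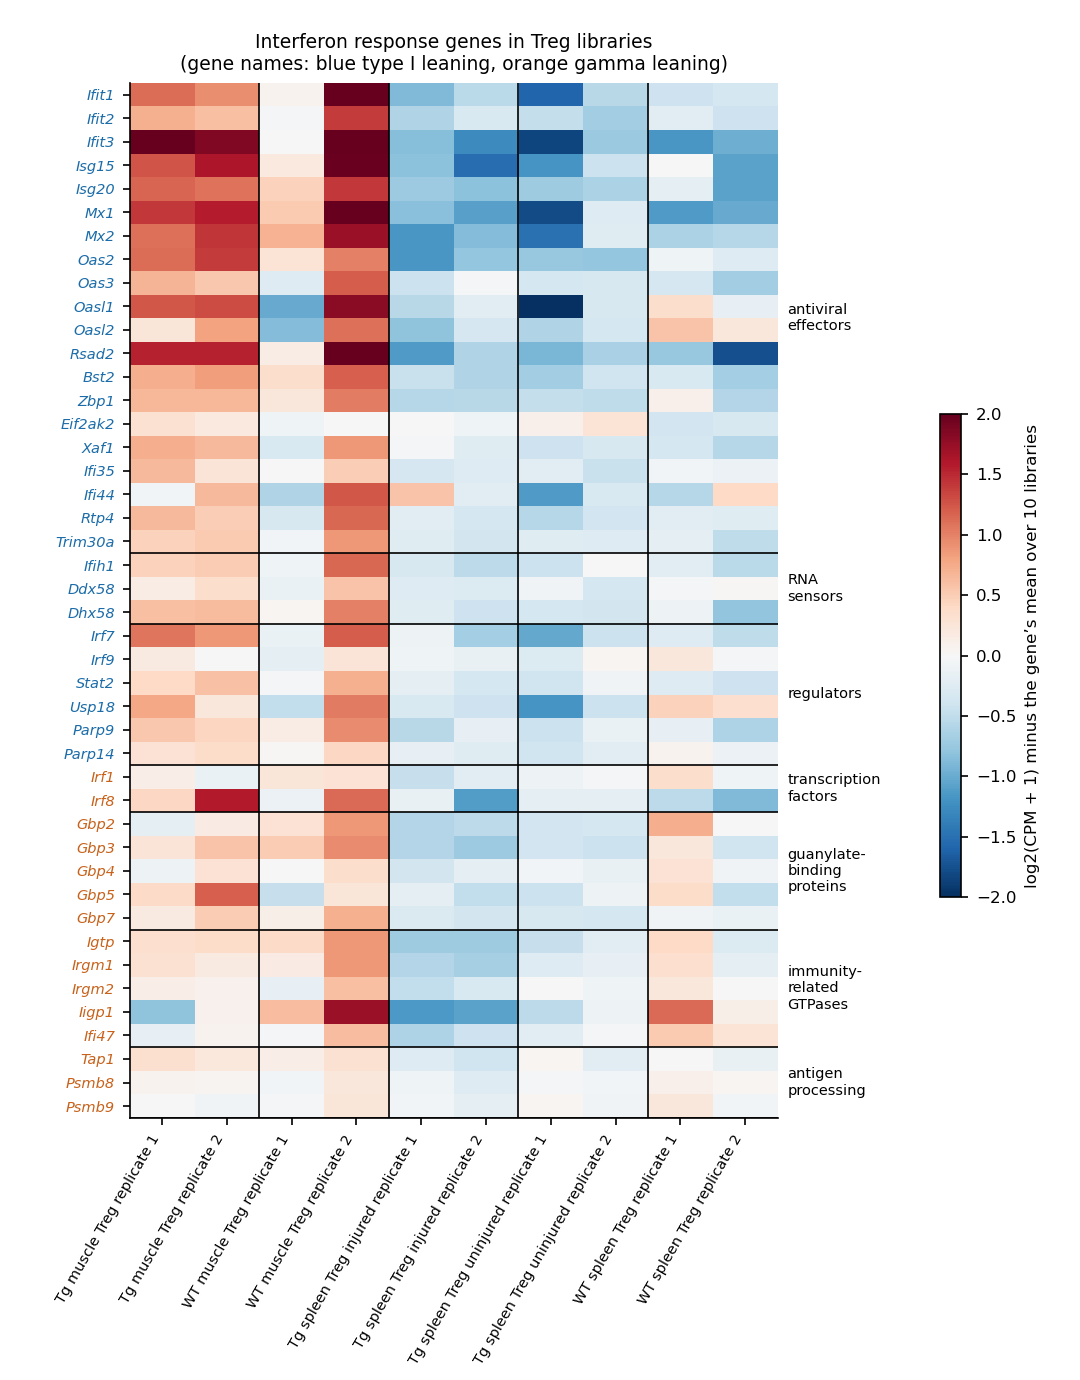
Level of each member (rows, grouped by role) in each of the 10 Treg libraries (columns), as log2(CPM + 1) minus the mean of the gene over these libraries. The antiviral effectors are red in both Tg muscle libraries and in WT muscle replicate 2, and WT muscle replicate 1 is paler.

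Tregs of injured Tg muscle were set against those of the spleen of injured Tg mice to see how the tissues differ. All 44 members had a positive log2 fold change, with a median of 0.86 (type I leaning 0.96, gamma leaning 0.58) against -0.04 over all 13188 genes tested. Library values did not overlap, muscle above spleen, for 42 members, or 95.5%, compared with 25.4% of all genes. At an adjusted p under 0.05 (edgeR quasi-likelihood test, Benjamini-Hochberg over all genes), 12 members rose (27.3%) and 0 fell, where 4.83% of all genes rose and 2.55% fell. Of the members that rose, 7 lean towards type I and 5 towards gamma. Fewer cells with high levels and lower levels in each cell cannot be told apart in bulk samples.

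Among antiviral effectors, 6 of 20 rose in Tg muscle Tregs. Mx2, a dynamin-like GTPase annotated as a polymorphic pseudogene in GENCODE M21 (chr16:97535308-97560900), had 44.1 and 55.2 CPM in Tg muscle Tregs, against 8.38 and 10.5 CPM in injured Tg spleen Tregs. Its log2 fold change was 2.39 ± 0.43 (SE; adjusted p = 0.00258). Oas2, an oligoadenylate synthetase that activates RNase L (chr5:120730333-120749853), had 56.8 and 68.9 CPM against 10.9 and 14.6 CPM, with a change of 2.30 ± 0.31 (adjusted p = 0.000228). In both genes every muscle library was above every spleen library by a wide margin. Isg20, an exonuclease that degrades viral RNA (chr7:78913424-78920396), averaged 263 ± 9.31 CPM in Tg muscle Tregs and 70.0 ± 3.22 CPM in injured Tg spleen Tregs (SD, n = 2 each). The change was 1.91 ± 0.33 (adjusted p = 0.00682). Bst2, the virion-tethering protein tetherin (chr8:71534255-71537456), had 180 and 194 CPM in Tg muscle Tregs, against 79.1 and 71.3 CPM in injured Tg spleen Tregs, a change of 1.32 ± 0.24 (adjusted p = 0.0035). Zbp1, a sensor of Z-form nucleic acid, changed by 1.24 ± 0.26 (adjusted p = 0.0124) from levels of 289 and 290 CPM in muscle and 122 and 123 CPM in spleen. Replicates of Zbp1 differed by about 1 CPM in each tissue. Ifi35, an interferon-induced leucine zipper protein, had 190 and 145 CPM in muscle and 95.6 and 101 CPM in spleen, a change of 0.77 ± 0.19 (adjusted p = 0.0246). Of its exonic bases, 16.8% are shared with the antisense gene Gm11626, and the libraries did not mark strand.

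Larger fold changes than these did not pass. Ifit3 had 225 and 203 CPM in Tg muscle Tregs, against 30.1 and 22.2 CPM in injured Tg spleen Tregs, a log2 fold change of 3.03 ± 1.02 (adjusted p = 0.176). Isg15, a ubiquitin-like modifier, had 108 and 139 CPM against 24.7 and 14.8 CPM (2.65 ± 0.70, adjusted p = 0.0796). The groups were far apart in both genes, while the SE came from the spread over all 5 Treg groups. Mx1 had 106 and 118 CPM against 21.5 and 17.9 CPM (adjusted p = 0.127), and Rsad2 had 98 and 97.6 CPM against 14.5 and 21.5 CPM (adjusted p = 0.148).

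Stat2, the subunit that gives ISGF3 its activation domain (chr10:128270559-128292849), was the single regulator of 6 that rose. It had 171 and 196 CPM in Tg muscle Tregs and 114 and 102 CPM in injured Tg spleen Tregs (0.77 ± 0.22, adjusted p = 0.0436). Its call was lost in 8 of 10 fits that left out 1 library (adjusted p up to 0.288) and held without WT muscle replicate 1 and without WT muscle replicate 2. Irf9, its DNA-binding partner, had 318 and 280 CPM against 263 and 251 CPM (adjusted p = 0.524). Irf7, the factor that amplifies type I interferon production, had 381 and 334 CPM against 169 and 113 CPM (adjusted p = 0.149). Of these 3 factors, Irf9 thus differed least between the tissues. The RNA sensors Ifih1 (MDA5), Ddx58 (RIG-I) and Dhx58 (LGP2), which detect viral RNA in the cytosol, had fold changes between 0.52 and 0.96 on the log2 scale. None of the 3 sensors passed the test.

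Gamma leaning genes that rose were Gbp3, Gbp7, Igtp, Irgm1 and Tap1. Gbp3, a guanylate-binding protein that attacks the vacuoles of intracellular pathogens (chr3:142560026-142573209), had 202 and 251 CPM in Tg muscle Tregs, against 112 and 101 CPM in injured Tg spleen Tregs. The change was 1.09 ± 0.21 (adjusted p = 0.00443). Its neighbour Gbp7 (chr3:142530342-142550149) had 438 and 553 CPM against 317 and 302 CPM (0.68 ± 0.17, adjusted p = 0.0263). Members of this family are alike in sequence and lie side by side, so reads may be shared between them, and 11.3% of exonic bases of Gbp7 also belong to Gm43802. Igtp, an immunity-related GTPase that guards host membranes (chr11:58199556-58207591), had 415 and 425 CPM in muscle and 200 and 200 CPM in spleen (1.07 ± 0.21, adjusted p = 0.0055). Igtp and Irgm2 overlap, which covers 8.01% of exonic bases of Igtp. Irgm1, a regulator of the other immunity-related GTPases, had 274 and 252 CPM against 147 and 140 CPM (adjusted p = 0.0251). Tap1 had 937 and 868 CPM against 633 and 571 CPM (0.58 ± 0.13, adjusted p = 0.0137). Immunoproteasome subunits differed less: Psmb8 had 896 and 886 CPM against 803 and 716 CPM (adjusted p = 0.334), and Psmb9 had 251 and 239 CPM against 244 and 222 CPM (adjusted p = 0.854).

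The number that rose in the Tg comparison depended on WT muscle Tregs, which are in the fit but in neither compared group. Without WT muscle Treg replicate 2, the median log2 fold change of the members was again 0.86, and 34 of 44 rose (77.3%, where 6.15% of all genes rose), 26 of them type I leaning and 8 gamma leaning. Without WT muscle Treg replicate 1 instead, 33 members rose (75%). The fold change of Ifit3 was again 3.03 without replicate 2. In that fit it had an adjusted p of 1.35e-06, Rsad2 of 8e-06, Mx1 of 0.000349, Irf7 of 0.000661 and Isg15 of 0.000848. Leaving out injured Tg spleen replicate 1 or replicate 2 left 3 and 2 members, with a lone library on that side that is assumed to vary like the other groups. Restricted to the 2 groups compared, the fit gave 33. Shares over all genes are given only for the fit without WT muscle Treg replicate 2. The other counts show how calls moved with the fit and are no result about the members.

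The same tissue question was asked in WT mice. Here 41 of 44 members had a positive log2 fold change, with a median of 0.82 (type I leaning 0.98, gamma leaning 0.21) against -0.04 over all genes. In this comparison 11 members rose (25%) and 0 fell, where 9.38% of all genes rose and 6.87% fell. Of those that rose, 9 lean towards type I and 2 towards gamma. Library values did not overlap, muscle above spleen, for 25 members (56.8%, against 26.3% of all genes), of which 21 lean towards type I and 4 towards gamma.

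Mx2 had 32.8 and 68.4 CPM in WT muscle Tregs, against 12.5 and 13.1 CPM in WT spleen Tregs, a log2 fold change of 1.99 ± 0.42 (adjusted p = 0.00544). Isg20 had 166 and 319 CPM against 105 and 56.4 CPM (1.61 ± 0.33, adjusted p = 0.0101), and Bst2 had 139 and 250 CPM against 87 and 67.5 CPM (1.35 ± 0.24, adjusted p = 0.00191). Both muscle libraries lay above both spleen libraries for these 3 genes, and replicate 2 was the higher muscle library. Ifih1 had 47 and 113 CPM in WT muscle Tregs, against 42.8 and 34.4 CPM in WT spleen Tregs (1.07 ± 0.34, adjusted p = 0.047). Dhx58, which modulates the other sensors, had 73.7 and 145 CPM against 66.8 and 41.2 CPM (1.05 ± 0.29, adjusted p = 0.0277). In these sensors replicate 1 was close to the spleen and replicate 2 far above it. Parp9, an ADP-ribosyltransferase that enhances interferon signalling, had 196 and 339 CPM against 157 and 115 CPM (0.99 ± 0.25, adjusted p = 0.0191). Zbp1 had 212 and 371 CPM against 196 and 121 CPM (0.90 ± 0.26, adjusted p = 0.0352). Trim30a, a tripartite motif protein of mice, had 229 and 432 CPM against 207 and 166 CPM (0.83 ± 0.24, adjusted p = 0.0335). Its relatives Trim30b and Trim30d lie in the same cluster and may share reads. Gbp3 had 241 and 324 CPM against 198 and 127 CPM (0.81 ± 0.21, adjusted p = 0.0157). Stat2 had 127 and 213 CPM in WT muscle Tregs, against 108 and 97.1 CPM in WT spleen Tregs (0.74 ± 0.22, adjusted p = 0.033). Gbp7 had 422 and 638 CPM against 370 and 354 CPM (0.55 ± 0.17, adjusted p = 0.0416). Over the 10 fits that left out 1 library, the WT call was lost in 9 for Ifih1, 8 for Zbp1 and 7 for Trim30a. For each of the 6 genes from Parp9 to Gbp7, WT muscle replicate 1 lay nearer to the upper spleen library than to replicate 2.

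Ifit3, Rsad2 and Mx1, with the largest WT fold changes, did not pass, and neither did Ifit1. Ifit3 had 54.9 and 453 CPM in WT muscle Tregs, against 24 and 27.6 CPM in WT spleen Tregs (3.29 ± 1.05, adjusted p = 0.101). Rsad2 had 36.8 and 201 CPM against 19.2 and 9.08 CPM (3.17 ± 0.85, adjusted p = 0.0542), Mx1 had 56.9 and 243 CPM against 17.3 and 19 CPM (3.04 ± 0.80, adjusted p = 0.0506), and Ifit1 had 118 and 526 CPM against 84.6 and 88 CPM (1.90 ± 0.73, adjusted p = 0.152). All 4 were higher in both muscle libraries than in either spleen library.

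Without WT muscle Treg replicate 2, the median of the WT comparison fell to 0.25 (type I leaning 0.31, gamma leaning -0.08), and 29 of 44 fold changes were positive. Then 4 members rose (9.09%, where 5.93% of all genes rose), namely Mx1 with 1.65 (adjusted p = 0.0253), Rsad2 with 1.48 (adjusted p = 0.0134), Isg20 with 1.08 (adjusted p = 0.01) and Bst2 with 0.87 (adjusted p = 0.0113). Isg20 and Bst2 were therefore called with and without this library, whereas Ifih1 had 0.31 (adjusted p = 0.583) and Trim30a had 0.31 (adjusted p = 0.321) without it. Without WT muscle Treg replicate 1 instead, the median was 1.15 and 28 members rose (63.6%, where 9.79% of all genes rose). Fewer members were called when WT spleen Treg replicate 2 was left out. The same held for uninjured Tg spleen replicate 2, injured Tg spleen replicate 1 and injured Tg spleen replicate 2. Shares over all genes are not given for these last fits, which show only how calls moved and are no result about the members.

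**Figure D3:**
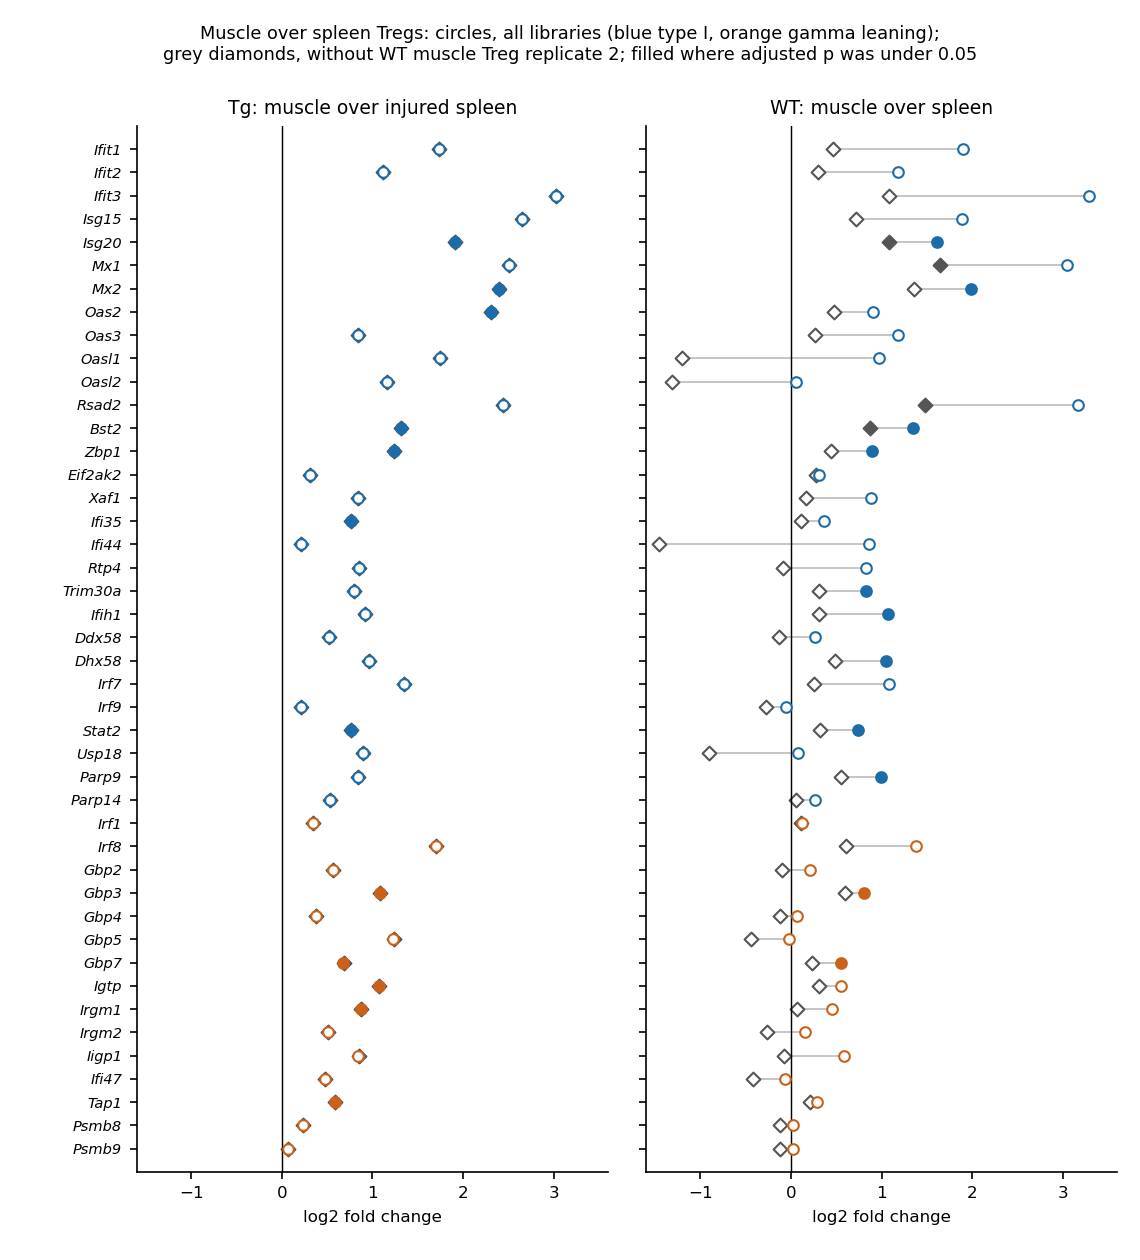
Log2 fold change of each member (y axis) in muscle over spleen Tregs, in Tg mice (left panel) and WT mice (right panel). Circles use all libraries, grey diamonds leave out WT muscle Treg replicate 2, and filled symbols passed an adjusted p under 0.05. In WT mice the diamonds rest on a lone muscle library. Circle and diamond coincide in Tg mice, where many more diamonds are filled, and the diamonds lie to the left in WT mice.

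Both tissue comparisons called Isg20, Mx2, Bst2, Zbp1, Stat2, Gbp3 and Gbp7. These 7 are 58.3% of the Tg list and 63.6% of the WT list. The overlap over all genes was not computed, so these shares are no result about the members. With WT muscle Treg replicate 2 left out, Isg20 and Bst2 kept the WT call, while Mx2, Gbp3, Zbp1, Stat2 and Gbp7 lost it. The WT muscle side is then a lone library. Oas2, Ifi35, Igtp, Irgm1 and Tap1 were called in Tg alone, and Trim30a, Ifih1, Dhx58 and Parp9 in WT alone. No such difference passed a test of its own. In the test of the Tg minus the WT tissue effect, 0 members were called, 2 had an unadjusted p under 0.05, and 0.0531% of all genes were called higher and 0.0834% lower. Here and below, counts at an unadjusted p lack a share over all genes and are no result about the members. The difference was largest for Oas2 at 1.40 (95% interval 0.31 to 2.5, adjusted p = 0.328) and Gbp5 at 1.26 (adjusted p = 0.574). Oasl2 had a difference of 1.10 (adjusted p = 0.787), and Usp18, a protease that removes Isg15 and damps the type I receptor, had 0.81 (adjusted p = 0.85). The median difference was 0.26 with all libraries, 0.77 when WT muscle Treg replicate 2 was left out and -0.06 when replicate 1 was. No member was called in either of those fits. Without replicate 2 all 44 differences were positive. The WT muscle side is then replicate 1 alone, the lower WT muscle library for these genes, so its level moves all differences together.

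Within injured muscle, Tg and WT Tregs were then compared directly. None of the members passed the test, 3 had an unadjusted p under 0.05, and the median log2 fold change was -0.03. Over all genes, 0.121% were called higher and 0.197% lower. WT muscle replicates enclosed both Tg muscle libraries for most type I leaning genes. For Ifit3 the Tg muscle libraries had 225 and 203 CPM and the WT muscle libraries 54.9 and 453 CPM, and the 95% interval of the log2 fold change ran from -2.59 to 2.08. Differences of several fold in either direction were therefore not detectable for such genes with these libraries. Iigp1, an immunity-related GTPase that disrupts pathogen vacuoles, had 50.1 and 93.9 CPM in Tg muscle Tregs, against 136 and 296 CPM in WT muscle Tregs (-1.58 ± 0.51, adjusted p = 0.439). Gbp2 had 139 and 176 CPM against 192 and 287 CPM (-0.60 ± 0.23, adjusted p = 0.47). Both were lower in each Tg library than in each WT library. Gbp5, which promotes inflammasome assembly, had 32.9 and 58.6 CPM in Tg and 17.9 and 29.8 CPM in WT muscle Tregs (0.94 ± 0.37, adjusted p = 0.47), and Oas2 had 56.8 and 68.9 CPM against 31.2 and 52.7 CPM (0.58 ± 0.29, adjusted p = 0.598).

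The direction of this comparison turned with the WT muscle library used. Without WT muscle Treg replicate 2 the median was 0.54, all 29 type I leaning fold changes were positive, and Ifit3 rose by 1.96 (adjusted p = 0.01). That 1 member is 2.27% of the list, where 0.284% of all genes rose. Without WT muscle Treg replicate 1 the median was -0.45, 41 of 44 fold changes were negative, and 1 member fell (2.27%, where 0.557% of all genes fell). This was Ifi47, an immunity-related GTPase, at -0.67.

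Summed over the 29 type I leaning genes, the levels were 4722 and 4582 CPM in Tg muscle Tregs and 2874 and 6513 CPM in WT muscle Tregs. The same sum was 2237 and 2184 CPM in injured Tg spleen, 2003 and 2325 CPM in uninjured Tg spleen and 2655 and 2195 CPM in WT spleen Tregs. All 4 muscle libraries were above all 6 spleen libraries, WT muscle replicate 1 by the least. Over the 15 gamma leaning genes the sums were 5105 and 5488 CPM in Tg muscle, 5106 and 6889 CPM in WT muscle, 3689 and 3620 CPM in injured Tg spleen, 4302 and 4255 CPM in uninjured Tg spleen, and 5647 and 4539 CPM in WT spleen Tregs. WT spleen replicate 1 reached the level of muscle in the gamma leaning sum and not in the type I leaning sum. Sums weight genes by their counts, so long and abundant transcripts count for more.

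**Figure D4:**
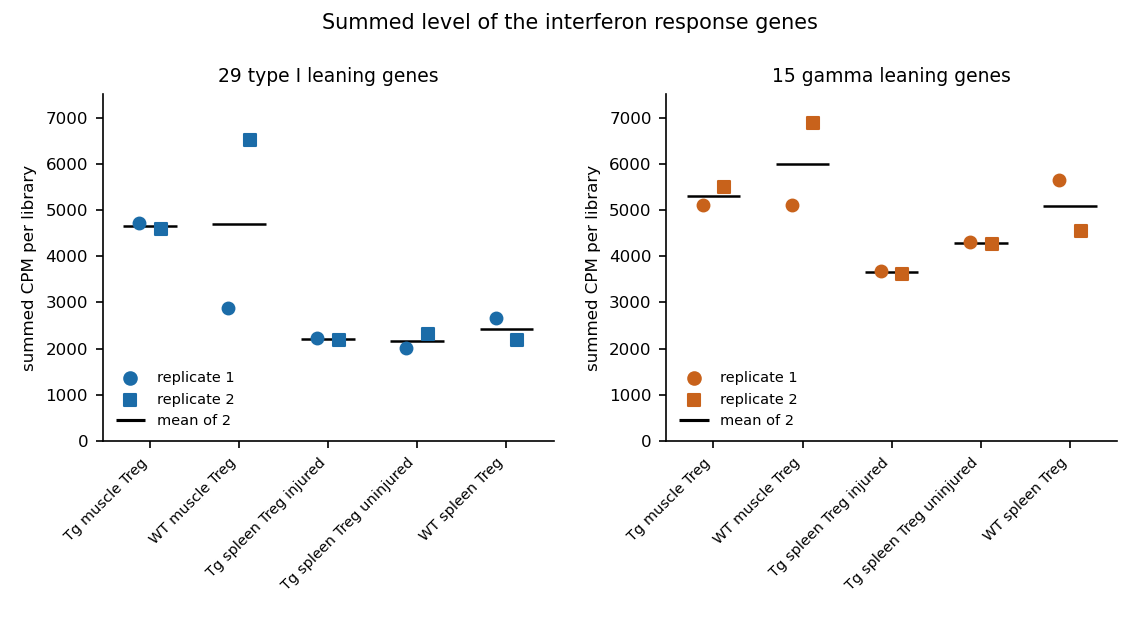
Summed CPM (y axis) of the type I leaning genes (left panel) and the gamma leaning genes (right panel) in each Treg library, by group, with a line at the mean of 2 libraries. The WT muscle libraries are the farthest apart in both panels, at 2874 and 6513 CPM on the left.

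The comparison of injured Tg spleen with WT spleen Tregs addressed genotype and gate outside the muscle. Of 15 gamma leaning genes, 14 had a negative log2 fold change and 12 (80%) were lower in both Tg libraries than in both WT libraries, where 21.3% of all genes were lower without overlap. Of 29 type I leaning genes, 17 were negative and 10 (34.5%) were lower without overlap. The medians were -0.48 for gamma leaning and -0.06 for type I leaning genes, against 0.00 over all genes. One member, Ifi47, passed the test (2.27% of members, where 0.417% of all genes were called lower), and 0 were called higher, where 0.887% of all genes were.

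Ifi47 (chr11:49076587-49096974) had 326 and 376 CPM in injured Tg spleen Tregs, against 724 and 604 CPM in WT spleen Tregs, a log2 fold change of -0.92 ± 0.19 (adjusted p = 0.0301). It shares 8.77% of its exonic bases with other genes, the overlapping olfactory receptor gene Olfr56 first among them. Iigp1 had 39.4 and 41.5 CPM against 195 and 96.5 CPM (-1.83 ± 0.52, adjusted p = 0.225). Gbp2 had 105 and 109 CPM against 260 and 157 CPM (-0.96 ± 0.24, adjusted p = 0.0806), and Igtp had 200 and 200 CPM against 431 and 272 CPM (-0.81 ± 0.21, adjusted p = 0.086). The 2 Tg libraries were close to each other in these genes, while WT spleen replicate 1 was well above WT spleen replicate 2. Among type I leaning genes, Oas2 had 10.9 and 14.6 CPM against 24 and 21.3 CPM (-0.82 ± 0.32, adjusted p = 0.319), and Oasl2 had 12 and 17 CPM against 32.7 and 25.7 CPM (-0.995 ± 0.53, adjusted p = 0.564). The call of Ifi47 was lost when either library of injured Tg spleen, either library of uninjured Tg spleen or either library of WT spleen was left out, with an adjusted p between 0.0554 and 0.314. No member was called in those fits except without WT spleen replicate 2, where 2 others were. It was one of 4 calls without WT muscle replicate 1 and also without WT muscle replicate 2, and one of 6 when the 2 groups were fitted alone.

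Injury itself was examined in Tg spleen Tregs, a tissue distant from the damaged muscle. None of the members, and 0% of all genes, was called in either direction, and 0 members had an unadjusted p under 0.05. The median was -0.02 for type I leaning and -0.25 for gamma leaning genes, and 14 of 15 gamma leaning fold changes were negative. Of the 15 gamma leaning genes, 11 (73.3%) were lower in both injured libraries than in both uninjured libraries, where 15.6% of all genes were. This comparison shares the injured Tg libraries with the preceding one, so the pattern of one carries into the other. Irgm1 had 147 and 140 CPM in injured and 186 and 198 CPM in uninjured Tg spleen Tregs (-0.42 ± 0.22, adjusted p = 1). Iigp1 had 39.4 and 41.5 CPM in injured and 61.1 and 82.6 CPM in uninjured Tg spleen Tregs (-0.83 ± 0.52, adjusted p = 1). Type I leaning genes varied between the uninjured libraries instead: Oasl1 had 9.06 and 11.7 CPM in injured and 1.71 and 10.8 CPM in uninjured Tg spleen Tregs, and Isg15 had 24.7 and 14.8 CPM in injured and 19.1 and 32.8 CPM in uninjured ones. The sign of both depended on which uninjured library was used.

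**Figure D5:**
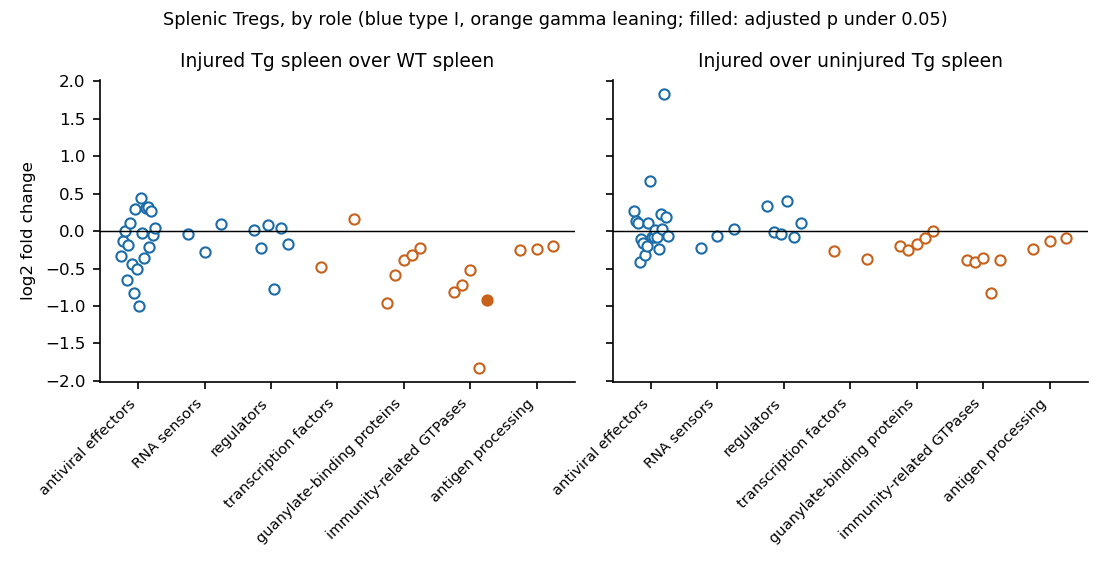
Log2 fold change (y axis) of each member by role (x axis) in injured Tg over WT spleen Tregs (left panel) and in injured over uninjured Tg spleen Tregs (right panel). The gamma leaning genes in orange lie mostly below 0 in both panels, and Ifi47 on the left is the filled point. The high point on the right is Ifi44, which had under 3 CPM in each of these 4 libraries.

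Genes upstream of the members were counted from further lists. Of the receptor genes, Ifngr1, the ligand-binding chain for interferon gamma, had 1500 and 1440 CPM in Tg muscle Tregs, against 500 and 475 CPM in injured Tg spleen Tregs (1.60 ± 0.14, adjusted p = 4.03e-06). In WT it had 2180 and 2450 CPM in muscle and 610 and 475 CPM in spleen Tregs (2.10 ± 0.14, adjusted p = 2.46e-07). Ifngr1 was thus about 3-fold higher in Tg and 4-fold higher in WT muscle Tregs, and it was the single receptor gene of 5 tested that rose in either. Ifngr2, its signalling partner, had 41.8 and 41.6 CPM in WT muscle, against 60.6 and 77.7 CPM in WT spleen Tregs (-0.74 ± 0.21, adjusted p = 0.0248). Ifnar1 had 500 and 456 CPM in Tg muscle and 417 and 458 CPM in injured Tg spleen Tregs, and Ifnar2 had 115 and 109 CPM against 134 and 119 CPM. Neither type I receptor chain passed the test in either genotype.

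Of 8 genes of the JAK, STAT and IRF list, 2 rose in Tg muscle Tregs and 4 in WT muscle Tregs, and 0 fell. Jak2, a kinase bound to the gamma receptor, had 88.3 and 101 CPM in Tg muscle, against 48.5 and 39.5 CPM in injured Tg spleen Tregs (1.11 ± 0.19), and 90.2 and 94.6 CPM in WT muscle, against 43.3 and 49.6 CPM in WT spleen Tregs (0.99 ± 0.19). Stat3 rose by 1.34 in Tg and 0.56 in WT muscle Tregs. Tyk2 (0.51) and Irf5 (1.64) rose in WT muscle Tregs. Of 5 negative regulators, 0 passed in Tg muscle Tregs and Ptpn6, a phosphatase, fell by 0.90 in WT muscle Tregs. Socs1, the inhibitor of JAK kinases induced by interferon gamma, had 20.2 and 64.3 CPM in Tg muscle and 87.5 and 64.8 CPM in injured Tg spleen Tregs, and 25.8 and 65.7 CPM in WT muscle and 93.8 and 90.5 CPM in WT spleen Tregs. Replicate 1 of either muscle group was the low one.

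Interferon genes were scarce. Ifnb1, Ifna2, Ifna4 and Ifne had 0 counts in all 10 Treg libraries, and 0 counts allow up to 0.367 CPM in the deepest and up to 1.44 CPM in the least deep of them. These limits cover counting error only. Ifnk had 1.44 CPM in WT spleen replicate 1 and 0 in the other Treg libraries. Ifng, which encodes interferon gamma, had 2.99 and 4.91 CPM in Tg muscle and 1.13 and 1.57 CPM in injured Tg spleen Tregs, which did not pass. It had 4.97 and 9.2 CPM in WT muscle, against 0.481 and 1.06 CPM in WT spleen Tregs, and rose by 3.05 ± 0.89 (adjusted p = 0.0305). Markers of CD8 and NK cells, which make this cytokine, summed to between 28.4 and 42.4 CPM in Tg muscle and 24.4 and 31.5 CPM in injured Tg spleen. The sums were between 43.2 and 70.5 CPM in WT muscle and 49.6 and 68.3 CPM in WT spleen Tregs. Most of each sum was Cd8b1 and Prf1, at 12 and 11.5 CPM and at 16.5 and 30.9 CPM in Tg muscle. Cd8a, Ncr1, Klrb1c and Eomes had 0 CPM in Tg muscle, at most 0.736 CPM in WT muscle and at most 5.07 CPM in spleen Tregs. The part of these cells in the Ifng level was not tested. Of 30 further induced genes tested, 7 rose and 0 fell in each genotype. Ifitm3, a membrane protein that blocks viral entry, Cd274, the checkpoint ligand PD-L1, B2m, H2-D1, Tap2 and Gbp6 rose in both. Cd274 had 238 and 226 CPM in Tg muscle, against 102 and 94 CPM in injured Tg spleen Tregs, and 171 and 235 CPM in WT muscle, against 101 and 101 CPM in WT spleen Tregs. Gbp2b, a close relative of Gbp2, was called lower in Tg than in WT Tregs of both tissues. It had 3.37 and 5.64 CPM in Tg muscle, against 75.3 and 85.9 CPM in WT muscle Tregs (-4.11 ± 0.52, adjusted p = 0.00353), and 10.2 and 14.6 CPM in injured Tg spleen, against 99.5 and 32.3 CPM in WT spleen Tregs (-2.38 ± 0.46, adjusted p = 0.027). Reads of Gbp2 and Gbp2b may be shared. Socs3, a cytokine-induced inhibitor of JAK signalling, had 223 and 232 CPM in Tg and 247 and 300 CPM in WT muscle Tregs, which did not pass (adjusted p = 0.838). In spleen it had 131 and 125 CPM in injured Tg, against 419 and 219 CPM in WT Tregs (-1.31 ± 0.25, adjusted p = 0.0298). Of 6 nucleic acid sensing genes tested, 0 were called in Tg muscle over spleen. In WT, Mavs, the adaptor of the RNA sensors, rose by 0.67 and Ikbke, a kinase that activates interferon regulatory factors, fell by 0.68.

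In whole muscle 8 days after injury, no difference in a member between genotypes was called. Of 43 tested, 0 were called and 3 had an unadjusted p under 0.05, where 0.0323% of all genes were called higher and 0% lower. The median log2 fold change was 0.09. Summed type I leaning levels were 331, 291 and 232 CPM in Tg and 219, 291 and 299 CPM in WT whole muscle, and summed gamma leaning levels were 236, 240 and 207 CPM in Tg and 177, 230 and 232 CPM in WT. The ranges of the genotypes overlapped in both sums. Irf8, a transcription factor of myeloid cells and of the gamma response, had 9.79, 12.3 and 12.3 CPM in Tg and 4.59, 9.76 and 5.80 CPM in WT whole muscle (0.76 ± 0.35, adjusted p = 0.994). Gbp4 had 9.17, 5.67 and 6.46 CPM in Tg and 8.11, 11 and 16.4 CPM in WT (-0.73 ± 0.35, adjusted p = 0.994). Trim30a had 17.1, 9.76 and 11.2 CPM in Tg and 8.26, 6.89 and 8.60 CPM in WT (0.68 ± 0.32, adjusted p = 0.994), and Gbp3 had 20.1, 11.8 and 23.4 CPM in Tg and 11.9, 15.5 and 8.60 CPM in WT. In the same libraries the 10 macrophage and monocyte markers summed to between 688 and 825 CPM in Tg and between 226 and 702 CPM in WT, and their part in the values of Irf8 and the other members was not tested.

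Other marker lists moved with the tissue comparisons in Tregs. Of 15 genes of dissociation and heat shock, 12 rose in muscle Tregs of each genotype. They summed to between 9170 and 9680 CPM in Tg muscle and 1420 and 1700 CPM in injured Tg spleen, and to between 7780 and 10100 CPM in WT muscle and 1480 and 1640 CPM in WT spleen Tregs. Their part in the interferon response genes was not tested. The sum of macrophage and monocyte markers went the other way, with 27.2 to 27.7 CPM in Tg muscle and 108 to 116 CPM in injured Tg spleen, and 10.8 to 19.9 CPM in WT muscle and 67.3 to 74.0 CPM in WT spleen Tregs. Adgre1, C1qa, C1qb and C1qc were called lower in Tg muscle, and Adgre1 alone in WT muscle. Not every marker followed the sum. Ly6c2 had 7.11 and 12 CPM in Tg muscle, against 3.17 and 4.49 CPM in injured Tg spleen Tregs, and Lyz2 overlapped there. B cell markers summed to between 20.9 and 29.9 CPM in Tg muscle and 66.9 and 118 CPM in injured Tg spleen, and to between 32.8 and 42.8 CPM in WT muscle and 63.0 and 102 CPM in WT spleen Tregs. Plasmacytoid dendritic cells are strong sources of type I interferon, and their marker Siglech had 0 CPM in both Tg muscle libraries and at most 0.452 CPM in WT muscle. The 6 markers of these cells summed to 66.2 CPM in WT muscle replicate 1 and to 16.2 CPM in replicate 2. Most of this was Ccr9, at 60.6 and 9.69 CPM. In the same order Siglech had 0.452 and 0 CPM, Tcf4 4.97 and 3.56 CPM, and Spib, which went the other way, 0.226 and 2.94 CPM. Bcl11a and Klk1 had 0 CPM in both. The part of these cells in the interferon levels was not tested. Neutrophil markers summed to at most 4.29 CPM in any Treg library.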

How the data were processed

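The authors deposited raw counts of reads per gene for 16 mouse libraries in 1 table. STAR 2.5.4, featureCounts and build mm10 are named in the submitters' processing notes, while the annotation and strand setting were not found in the labels. According to the labels' protocols, oligo(dT)-primed cDNA was amplified and fragmented with a transposon, which does not mark strand.

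Genes were tested with edgeR 4.0.16 under R 4.3.3 (low counts filtered by filterByExpr, TMM scaling, estimateDisp, robust glmQLFit, glmQLFTest, Benjamini-Hochberg over all genes, threshold 0.05). The 10 Treg libraries shared 1 fit (13188 genes, 5 residual degrees of freedom) and the 6 whole muscle libraries another (12377 genes, 4 residual degrees of freedom). Levels are TMM-scaled CPM computed from the counts. SEs were derived from the test statistic, and 95% intervals from the SEs. The smallest exact permutation p would be 0.333 with 2 against 2 and 0.1 with 3 against 3, so no gene was tested that way. The fits were tested on simulated data.

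Alternatives were relative log expression scaling, no low-count filter, DESeq2 1.42.0, a replicate block, fits of the compared groups alone, and each library left out in turn. Members, lists and alternatives were chosen with earlier results of these data known. Values in each library are given for members called in a comparison, up to 4 others with the largest fold change and a mean of at least 5 CPM, the 5 with the largest ratio between WT muscle Treg replicates, and the most abundant of each role. Irf7, Psmb9, Eif2ak2 and other genes named outside this rule were chosen after their values were seen. Not every gene of the pathway lists is reported here. Libraries of a group differed by more than counting noise (chi-square per degree of freedom 5.9 to 31.9), so none was a copy of another. This cannot tell whether they were prepared from the same animals or cells, because separate preparation also adds spread. Coordinates of genes are from GENCODE M21 (GRCm38, the assembly of mm10), and promoter windows from RefSeq on GRCm38.p6.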

Additional observations from a re-analysis of the deposited data

How the results depend on the processing

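Relative log expression scaling moved no median over all genes by more than 0.005 and changed no count of calls by over 1.5 times. Without the low-count filter, 23 members were called in the Tg tissue comparison, 18 in the WT tissue comparison and 4 between injured Tg and WT spleen. DESeq2 called 21, 17 and 4 in these and 0 in the other 4 comparisons, and the fits of the compared groups alone 33, 2 and 6. Shares over all genes are not given for the counts in this section, which show only how calls moved with the setting. Leaving out 1 library at a time gave 2 to 34 calls in the Tg tissue comparison, 2 to 28 in WT, 0 to 1 between Tg and WT muscle and 0 to 4 between injured Tg and WT spleen. It gave 0 in the other 3 comparisons. The highest Tg count came without WT muscle Treg replicate 2 and the highest WT count without WT muscle Treg replicate 1. In injured over uninjured Tg spleen, Oasl1 had a log2 fold change of 0.67 with all libraries, -0.065 without uninjured replicate 1 and 2.583 without uninjured replicate 2. Isg15 had -0.41 with all libraries, 0.049 without uninjured replicate 2 and -0.824 without injured replicate 1, and the cause was not tested. Over the named genes, 597 alternative values kept direction and side of the threshold, 79 lost the call, 37 gained one and 2 turned. No pairing of samples by replicate number was detected, which cannot exclude shared animals or batches. Deviations of same-numbered libraries correlated between -0.042 and 0.095. The fit with a replicate block called 12 members in the Tg and 9 in the WT tissue comparison, 1 between injured Tg and WT spleen and 0 elsewhere. With 2 libraries a Treg group, each call rests on a spread estimated over all 5 groups.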
